A study of Homo sapiens with 18 samples.

Results

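A98 is one of 4 rexinoids known in this series only by a code, and its effect was measured in U87, an established human glioblastoma line, against the ethanol vehicle. The 6 libraries compared, of 18 in all, were the 3 whose titles name A98 and the 3 whose titles name ethanol. The deposited tables of the A98 libraries carry the code A90, and whether both codes mean 1 compound is not stated, so A98 here is the name in the titles. The A98 cells received a single dose of 100 nM for 24 h and the ethanol cells received vehicle for the same time. All cells were unmodified U87 kept in serum-containing medium, whose retinoid and lipid content was not measured here. The other 12 libraries came from cells given bexarotene, A34, A41 or A80 at the same dose and time, with 3 libraries each. Nothing in the labels says that the libraries of a group are separate cultures. The p-values therefore reflect differences among libraries that may be technical only.

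A rexinoid binds and activates RXR, the retinoid X receptor, which sits on DNA in a pair with another nuclear receptor. The partners include the retinoic acid receptors (RAR), whose targets clear and store retinoids, the liver X receptors (LXR), whose targets export cholesterol and make unsaturated fatty acids, and the peroxisome proliferator-activated receptors (PPAR), whose targets burn and store fat. Some of these pairs can be switched on from the RXR side alone, so genes of each partner are followed below.

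RNA had been depleted of ribosomal RNA and sequenced from random primers. Aligned sequence came to 1.67 to 1.82 gigabases in the A98 libraries and 1.81 to 3.33 in the ethanol libraries. Levels are TPM, each transcript's share of its library per length, divided by a median-of-ratios factor for each library, called scaled TPM, and can be compared between genes. Ribosomal RNA took 1.95%, 0.51% and 0.462% of TPM in A98 libraries 1 to 3, against 0.349%, 35.5% and 4.35% in ethanol libraries 1 to 3. Log2 fold changes are of scaled TPM + 1, and a gene was called at an adjusted p under 0.05 in limma. Each SE draws on the spread within all 6 groups of the 18 libraries, including groups not compared.

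The cells carried the receptors these compounds can act through. RXRA had 5.98, 6.14 and 6.08 scaled TPM with A98, against 5.84, 5.1 and 6.25 with ethanol, and RXRB had 8.58, 8.76 and 9.47 with A98, against 9.59, 7.42 and 9.51 with ethanol. RXRG stayed under 1 scaled TPM in all 6 libraries. Of 24 tested receptor and cofactor genes, 0 were called and 0 reached even an unadjusted p under 0.05 in limma. Their median log2 fold change was 0.03. The mesenchymal genes VIM, CD44 and FN1 were high in both groups, with VIM at 4122 to 4374 with A98 and 4046 to 4443 with ethanol. The labels call these glial cells, and astroglial genes differed widely in level. The astrocyte filament gene GFAP had 1.6, 0.392 and 0.263 with A98, against 0.646, 0.811 and 0.688 with ethanol. The neural stem cell gene SOX2 was at most 0.0191 with A98 and 0.0116 with ethanol. Of 15 astroglial and stem cell genes listed, 10 reached 1 TPM in at least 1 of the 6 libraries. The list summed to 302 to 325 scaled TPM with A98 and 279 to 337 with ethanol. CLU, a member of it, had 194, 177 and 174 with A98, against 194, 181 and 165 with ethanol. PTPRC, which defines leukocytes, was at most 0.0688 with A98 and 0.0938 with ethanol, and MOG, of oligodendrocytes, was listed at 0 in 5 of the 6 libraries. Of 8 leukocyte genes listed, 2 reached 1 TPM. They were CD68, with 169, 169 and 181 with A98 against 143, 172 and 165 with ethanol, and CSF1R, with 9.76 to 14.1 with A98. Of 6 oligodendrocyte genes listed, 2 reached 1 TPM. They were MBP and CNP, the latter with 27.9, 30.1 and 25.8 with A98 against 31.9, 26.8 and 28.4 with ethanol.

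A98 raised 6 genes against ethanol and lowered 0 in limma. Some genes were called lower in other settings, 8 of 24 with array weights, 4 of 11 with a filter of above 0 TPM, 1 of 2 with TPM as deposited, 2 of 8 without A98 library 1 and 1 of 8 without A98 library 3. Dropping the ribosomal-RNA-rich libraries gave 1 lower gene of 6 called, and 1 of 7 when the title number was also a block. The 6 genes raised by A98 included CYP26B1 and DHRS3, which remove retinoic acid or its precursor. ABCA1 and SCD, which export cholesterol and desaturate fatty acids, were also among the raised genes. The secretory kinase FAM20C and the fatty acid oxidation enzyme ECH1 completed the set. The 6 calls are 0.0328% of the 18269 genes tested, and 1211 genes (6.63%) had an unadjusted p under 0.05, 589 of them higher and 622 lower with A98. In each of the 6 genes the lowest A98 library lay above the highest ethanol library. Groups that did not overlap in this direction were found for 8.49% of all genes tested, and in the other direction for 8.18%.

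The start regions of 3 of these genes are shown because ABCA1 and SCD are known targets of LXR and DHRS3 of RAR, whose pairs with RXR bind repeats of the 6-base element AGGTCA. RefSeq (GRCh38.p14) had the 250 bases before and 50 bases after the start for 5 of the 6 genes, all but ECH1. The letters AGGTCA were searched on both strands. So was AGTTCA, a form common at retinoid targets. GGTTCA was a further form searched, and GGGTCA was the last of the 4. At least 1 form is found in 38.6% of 34943 promoters of that length. Among the 5 genes only ABCA1 held one, at positions -125 to -120 from the start. Direct repeats of 2 elements 1, 2, 4 or 5 bases apart were searched too, and none of the 5 genes held an exact one. A search of the same 4 spacings with at most 1 mismatch in each element, added after the data were seen, gave a single match in the 5 genes, in ABCA1 at a spacing of 4, at -69 to -54 on the minus strand. The loose repeats are found in 1.76%, 1.25%, 1.37% and 1.39% of promoters at spacings of 1, 2, 4 and 5, and the ABCA1 match covers the element known in the literature as its LXR response element. Capitals mark the single element and the elements of the repeat. The sequences run 5′ to 3′ on the strand of the gene, from chr9:104928106-104928405 (minus strand) for ABCA1, chr10:100346983-100347282 (plus strand) for SCD and chr1:12618161-12618460 (minus strand) for DHRS3.
ABCA1: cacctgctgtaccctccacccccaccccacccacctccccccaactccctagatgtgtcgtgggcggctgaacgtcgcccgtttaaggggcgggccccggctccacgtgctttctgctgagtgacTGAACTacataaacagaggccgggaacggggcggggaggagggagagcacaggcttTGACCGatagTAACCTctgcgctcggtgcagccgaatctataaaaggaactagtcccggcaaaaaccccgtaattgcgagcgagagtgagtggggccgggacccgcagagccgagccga
SCD: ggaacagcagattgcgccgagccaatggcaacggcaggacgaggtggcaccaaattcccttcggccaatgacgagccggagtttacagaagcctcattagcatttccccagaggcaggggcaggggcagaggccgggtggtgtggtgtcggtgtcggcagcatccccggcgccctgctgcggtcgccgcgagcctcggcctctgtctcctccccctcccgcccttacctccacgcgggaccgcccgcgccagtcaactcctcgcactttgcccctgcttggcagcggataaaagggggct
DHRS3: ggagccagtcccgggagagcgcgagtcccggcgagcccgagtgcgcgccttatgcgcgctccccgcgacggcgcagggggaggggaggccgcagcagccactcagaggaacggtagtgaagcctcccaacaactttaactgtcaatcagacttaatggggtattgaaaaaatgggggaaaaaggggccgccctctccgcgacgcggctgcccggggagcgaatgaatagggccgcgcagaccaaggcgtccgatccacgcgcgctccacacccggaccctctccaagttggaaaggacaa
SCD and DHRS3 held none of the searched forms in these windows, which says only that those letters are not there.

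Retinoid clearance genes came first by role. CYP26B1, a cytochrome P450 that oxidizes retinoic acid (ENSG00000003137, chr2:72129238-72148038, minus strand, GRCh38), had 15.6, 13 and 14.8 scaled TPM with A98, against 4.86, 3.01 and 3.97 with ethanol. All 3 A98 libraries were well over the highest ethanol library. The log2 fold change was 1.66 (SE 0.20, 95% interval 1.24 to 2.08, adjusted p = 0.0014 by limma). DHRS3, which turns retinaldehyde back to retinol (ENSG00000162496, chr1:12567910-12618210, minus strand), had 69.6, 66.5 and 67.4 with A98, against 29.9, 37 and 37.6 with ethanol. The A98 libraries lay close together and the ethanol libraries were more spread. DHRS3 rose by 0.95 on the log2 scale (SE 0.09, 0.77 to 1.13, adjusted p = 0.00016 by limma).

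The rest of the retinoid list moved less. Of 21 genes listed, 14 were tested, 12 of them had a log2 fold change above 0 and 2 were called, with a median of 0.22 over the 14, while over all genes tested 49.5% were above 0 and the median was 0.00. Of the 14, 4 had an unadjusted p under 0.05 in the upward direction and 0 in the downward one, against 3.22% and 3.4% of all genes. STRA6, which takes up retinol from its serum carrier, had 2.02, 1.42 and 1.96 with A98, against 0.871, 0.313 and 0.739 with ethanol (log2 fold change 0.78, adjusted p = 0.58 by limma). TGM2, a transglutaminase long used as a retinoic acid response gene, had 206, 197 and 199 with A98, against 167, 159 and 165 with ethanol (0.29, adjusted p = 0.60 by limma). For both genes the groups did not overlap, but neither passed over all genes. RARB, itself a retinoic acid target, had 7.16, 5.82 and 6.23 with A98, against 5.11, 5.1 and 5.06 with ethanol (0.28, adjusted p = 0.85 by limma). The sister enzyme CYP26A1 was at most 0.00459 scaled TPM with A98 and 0.00954 with ethanol, and CYP26C1 was at most 0.00927 with A98 and 0.00111 with ethanol.

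Lipid genes gave the other large changes. ABCA1, which loads cholesterol onto apolipoproteins (ENSG00000165029, chr9:104781006-104928155, minus strand), had 58.9, 57.8 and 53.8 scaled TPM with A98, against 22, 24.2 and 22.4 with ethanol. The spread within each group was small beside the gap between them. It rose by 1.28 on the log2 scale (SE 0.12, 1.02 to 1.54, adjusted p = 0.00016 by limma). SCD, the desaturase that makes oleate (ENSG00000099194, chr10:100347233-100364826, plus strand), had 133, 154 and 128 with A98, against 49.6, 47.3 and 39.8 with ethanol. It rose by 1.58 (SE 0.16, 1.25 to 1.92, adjusted p = 0.00023 by limma).

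All 10 tested LXR targets, of 16 listed, had a log2 fold change above 0, with a median of 0.32, and ABCA1 and SCD were the 2 that passed. The list shares SCD, SREBF1 and FASN with that of fatty acid synthesis. SREBF1, the transcription factor that drives fatty acid synthesis, had 14.9, 11.4 and 11.9 with A98, against 6.43, 7.44 and 6.62 with ethanol (0.81, SE 0.21, adjusted p = 0.50 by limma). LPCAT3, which places unsaturated fatty acids in phospholipids, had 17.2, 16.5 and 17.5 with A98, against 12.4, 12 and 12.5 with ethanol (0.44, adjusted p = 0.50 by limma). In both genes the groups did not overlap. FASN, fatty acid synthase, overlapped fully, with 26.9, 22.2 and 24.5 with A98, against 27.2, 21.7 and 22 with ethanol (0.05, adjusted p = 0.98 by limma). ABCG1 and MYLIP, which are LXR targets in many cells, stayed under 1 scaled TPM in all 6 libraries and were not tested. MYLIP was lower with A98 without overlap, with 0.352, 0.394 and 0.341, against 0.627, 0.586 and 0.621 with ethanol. ABCG1 overlapped, with 0.263, 0.357 and 0.244 with A98, against 0.426, 0.0337 and 0.216 with ethanol.

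Among 14 tested fatty acid synthesis genes SCD was the only call, 11 were above 0 and the median was 0.10. FADS1, a desaturase of polyunsaturated fatty acids, had 75.5, 73.5 and 76.1 with A98, against 66.8, 62.8 and 65.3 with ethanol (0.20, adjusted p = 0.68 by limma). Of 9 acyl-CoA synthetases, which activate fatty acids, 0 passed. ACSL3, the member bound to lipid droplets, was nearest, with 37, 39.1 and 37.9 with A98, against 27, 28.9 and 28.4 with ethanol (0.42, SE 0.07, adjusted p = 0.062 by limma). ACSL5 had 3.05, 3.46 and 3.48 with A98, against 2.12, 2.56 and 1.85 with ethanol (0.45, adjusted p = 0.58 by limma), while ACSL1 overlapped (0.02).

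On the cholesterol list 19 of 24 tested genes were above 0, with a median of 0.16, and 0 were called. Of the 24, 6 had an unadjusted p under 0.05, all upward, against 3.22% of all genes in that direction. SREBF2, the regulator of this pathway, had 21.1, 21.8 and 20.2 with A98, against 17.7, 14.8 and 16.5 with ethanol (0.35, adjusted p = 0.29 by limma). IDI1, which isomerizes the isoprenoid building block, had 24.3, 27.8 and 27.9 with A98, against 20.1, 19.8 and 23.8 with ethanol (0.32, adjusted p = 0.68 by limma). The A98 libraries of both genes were all above the ethanol libraries, in the same cells in which the exporter ABCA1 rose.

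ECH1, an enzyme that shifts double bonds during fatty acid oxidation (ENSG00000104823, chr19:38815422-38831841, minus strand), had 60.6, 55.7 and 55.4 scaled TPM with A98, against 39.5, 36.7 and 41.8 with ethanol. It rose by 0.53 (SE 0.08, 0.36 to 0.70, adjusted p = 0.021 by limma). The call did not hold without A98 library 1, 2 or 3 or without ethanol library 1 or 2, where the adjusted p ran from 0.055 to 0.15 and the log2 fold change from 0.48 to 0.55. It held without ethanol library 3 (adjusted p = 0.042 by limma). A further gene model, AC008982.1, shares 14371 bases with ECH1 on the same strand and was listed at 0. Of the 25 oxidation genes tested ECH1 was the only call, 16 were above 0 and the median was 0.06. HADHB, a subunit of the trifunctional protein of this pathway, had 63.9, 64 and 62.4 with A98, against 50.1, 56.5 and 57.2 with ethanol (0.22, adjusted p = 0.63 by limma).

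The PPAR list of 18 genes had 12 tested and 0 called, with 10 above 0 and a median of 0.14. ANGPTL4, a secreted inhibitor of lipoprotein lipase, had the largest fold change of the list at 96.2, 50.3 and 46.5 with A98, against 22.7, 17.7 and 12.9 with ethanol. A98 library 1 stood far above the other 2, and the log2 fold change was 1.75 with an SE of 0.61 (adjusted p = 0.68 by limma). That SE draws on all 18 libraries. The SD was 27.7 with A98 and 4.9 with ethanol, against 25.2 with bexarotene, 110 with A34, 47.3 with A41 and 85.7 with A80. ANGPTL4 is also induced by low oxygen. PDK4, the kinase that turns off pyruvate oxidation, overlapped, with 2.14, 2.93 and 1.82 with A98, against 1.08, 2.55 and 1.5 with ethanol (0.30, adjusted p = 0.84 by limma).

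FAM20C, a Golgi kinase that phosphorylates secreted proteins (ENSG00000177706, chr7:192571-260772, plus strand), had 102, 89.5 and 99.1 scaled TPM with A98, against 42.1, 46.1 and 45.4 with ethanol. It rose by 1.10 (SE 0.13, 0.83 to 1.38, adjusted p = 0.0014 by limma). Its relative FAM20B had 22.3, 21.5 and 23.3 with A98, against 20.7, 20.3 and 21.5 with ethanol (0.10, adjusted p = 0.88 by limma), and FAM20A was under 1 in all 6 libraries. Of the 12 tested genes listed as its kinase relatives and substrates, FAM20C was the only call, 7 were above 0 and the median was 0.07. The substrate IGFBP3, an insulin-like growth factor binding protein, had 206, 204 and 119 with A98, against 60.9, 54.3 and 30 with ethanol (1.86, SE 0.76, adjusted p = 0.73 by limma), and SPP1, another substrate, overlapped (-0.07).

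**Figure D1:**
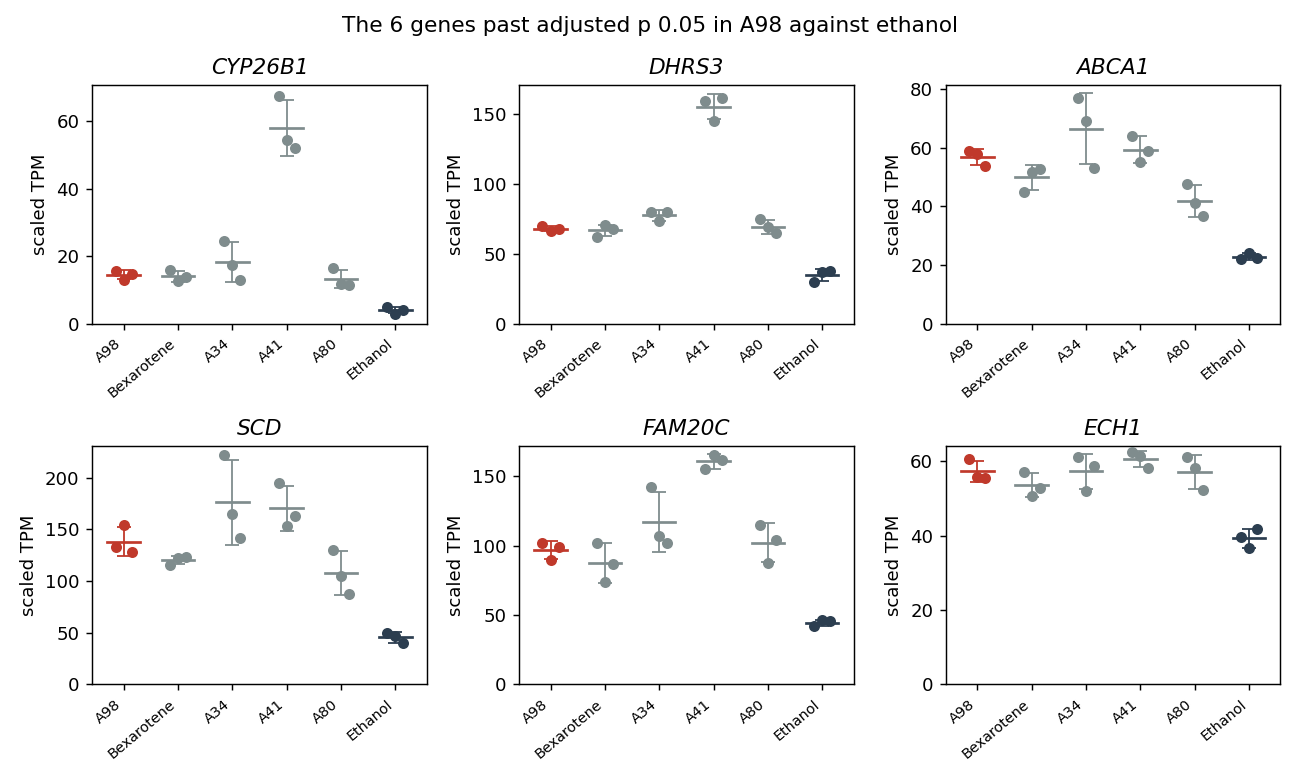
Scaled TPM (vertical axes, linear from 0) of the 6 called genes in each of the 18 libraries, with A98 at the left, the other rexinoids between and ethanol at the right. Points are libraries 1 to 3 from left to right, lines are means and bars are SD (n = 3). The 3 A98 points lie above the 3 ethanol points in all 6 panels, and A41 stands above the others for CYP26B1 and DHRS3.

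**Figure D2:**
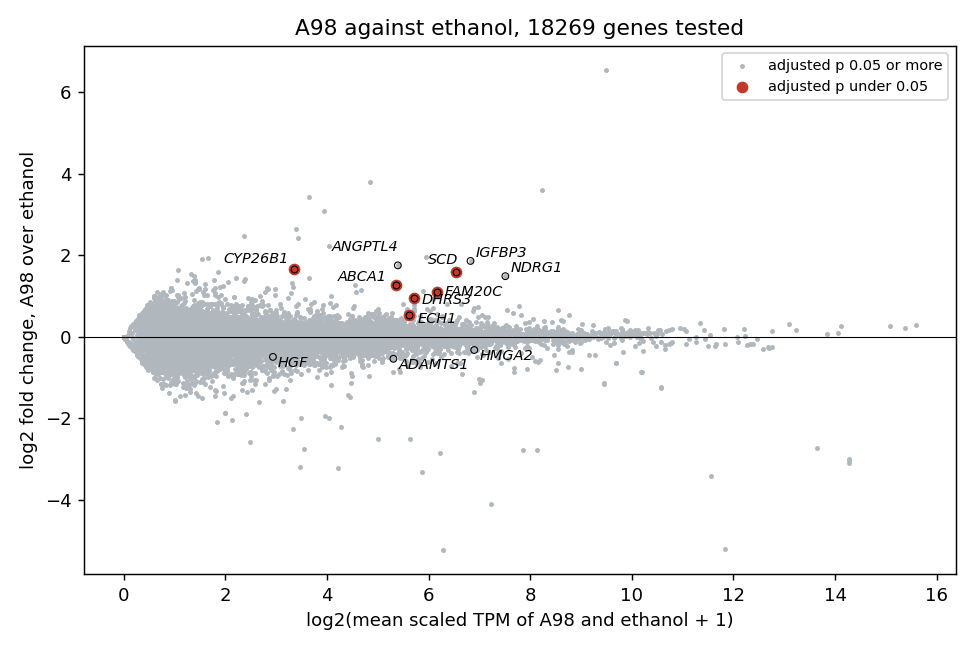
Log2 fold change of A98 over ethanol (vertical axis) against the log2 mean level of the 2 groups (horizontal axis) for the 18269 genes tested. Red points are the 6 genes with an adjusted p under 0.05, all above 0, and named open points did not pass. NDRG1, IGFBP3 and ANGPTL4 lie as high as the called genes and were more variable between libraries.

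Of the genes that did not pass, 20 were taken by smallest p among those whose groups did not overlap, 10 in each direction, with adjusted p from 0.062 to 0.37 in limma. ID1, an inhibitor of differentiation factors, had 285, 287 and 270 with A98, against 228, 210 and 219 with ethanol (0.36, adjusted p = 0.099 by limma). OLMALINC, a long noncoding RNA that lies next to SCD (chr10:100373099-100454043), had 5.66, 5.18 and 3.98 with A98, against 1.4, 2.47 and 2.2 with ethanol (0.98, adjusted p = 0.099 by limma). GALNT12, which starts mucin-type O-glycans, had 24.8, 20.5 and 17.2 with A98, against 11.4, 13.7 and 11.1 with ethanol (0.73, adjusted p = 0.10 by limma). The other genes higher with A98 were ACSL3, given above, the cytokine receptor TNFRSF9 (0.77, adjusted p = 0.12 by limma), LINC00339 (0.59), METTL23 (0.46), NARF (0.51) and the transcription factors DLX3 (0.63) and MAF (0.57). LINC00339 shares 5713 bases with CDC42 on the same strand, so its value is uncertain.

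On the lower side ADAMTS1, a secreted metalloprotease, had 30.7, 33.1 and 29.9 scaled TPM with A98, against 51, 42.5 and 44.2 with ethanol (-0.54, adjusted p = 0.14 by limma). HGF, the ligand of the MET receptor, had 4.86, 4.85 and 6.42 with A98, against 7.49, 8.15 and 8.14 with ethanol (-0.49, adjusted p = 0.20 by limma). HMGA2, a chromatin protein of growing mesenchymal cells, had 107, 108 and 100 with A98, against 128, 128 and 140 with ethanol (-0.32, adjusted p = 0.37 by limma). None of these passed. SPIDR, a DNA repair scaffold (-0.36), was the remaining named protein-coding gene there, and the other 6 were pseudogenes or clone-named genes. One of them, RPL39P5, shares 1215 bases with AMOTL2 on the same strand, so its fold change of -2.08 is uncertain.

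ADAMTS1, HGF and HMGA2 stand on the list of growth factor signalling genes. That list was chosen with earlier results of these data known, and these genes were picked above by smallest p. The counts that follow are therefore no independent support for a lower list. Of 17 tested, 6 had an unadjusted p under 0.05 downward and 1 upward, against 3.4% and 3.22% of all genes. In all 4 were above 0 and 0 were called, with a median of -0.09 (0.07 with TPM as deposited, which shifts all genes by 0.15). Feedback genes of the MAP kinase pathway differed in sign. DUSP4, a MAP kinase phosphatase, had 24.1, 23 and 22.6 with A98, against 28.9, 26.6 and 27.4 with ethanol (-0.24, adjusted p = 0.68 by limma). SPRY4, a receptor kinase antagonist, had 17.3, 14.6 and 16.3 with A98, against 19.2, 19.4 and 18.2 with ethanol (-0.23, adjusted p = 0.72 by limma). DUSP6, a phosphatase of ERK, overlapped with 48.9, 36.7 and 30.2 with A98, against 27.3, 38.1 and 29.1 with ethanol (0.27, adjusted p = 0.89 by limma), as did DUSP5 (-0.07). The members above 0 were DUSP6, MET (0.10), LIF (0.41) and TGFA, a ligand of the EGF receptor, with 87.8, 85.6 and 74.9 with A98, against 53.2, 51.2 and 46.2 with ethanol (0.71, adjusted p = 0.67 by limma).

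Of the genes of low oxygen and glycolysis none passed in limma. All 19 tested had a log2 fold change above 0 with a median of 0.44, 16 had groups that did not overlap (8.49% of all genes in that direction), 4 had an unadjusted p under 0.05 (3.22% of all genes) and 0 were called. NDRG1, a stress-induced gene and common hypoxia marker, had 379, 247 and 185 scaled TPM with A98, against 96.9, 104 and 75.8 with ethanol (1.49, SE 0.53, adjusted p = 0.68 by limma). CA9, a carbonic anhydrase under the control of hypoxia-inducible factor, had 104, 87.4 and 69.2 with A98, against 64.7, 43.9 and 30.5 with ethanol (0.94, SE 0.44, adjusted p = 0.75 by limma). VEGFA, the vascular growth factor, had 510, 456 and 371 with A98, against 356, 314 and 321 with ethanol (0.42, adjusted p = 0.75 by limma).

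These genes also differed between libraries of 1 group. The mean log2 difference of the 19 from the ethanol mean was 0.78, 0.56 and 0.37 in A98 libraries 1 to 3, and 0.16, 0.03 and -0.19 in ethanol libraries 1 to 3. In all 6 groups the library titled 1 had the highest value, up to 1.47 with A34 and 1.46 with A80. The LXR list includes the called genes ABCA1 and SCD, and a small spread within groups favours a call. The mean of this list varied less between libraries in the 2 groups compared. It was 0.59, 0.56 and 0.50 with A98 and -0.02, -0.01 and 0.04 with ethanol. It fell from library 1 to 3 with A34 (0.72, 0.64 and 0.35) and A80 (0.43, 0.34 and 0.23). With bexarotene (0.51, 0.42 and 0.45) and A41 (0.49, 0.64 and 0.52) there was no steady fall. The part of this variation in the A98 result was not tested. Of marker lists for other cell types, the 8 neuronal genes, 5 of them at 1 TPM or more, summed to 249 to 292 scaled TPM with A98 and 217 to 223 with ethanol, and the largest of them, ENO2, is also a glycolytic enzyme.

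Genes of the unfolded protein response and of ATF4, the factor of amino acid shortage, gave a like pattern. Of 20 tested, 18 were above 0, 0 were called and the median was 0.18. An unadjusted p under 0.05 was reached by 8 upward and 0 downward, against 3.22% and 3.4% of all genes. PHGDH, the first enzyme of serine synthesis, had 91.1, 84.1 and 76.7 with A98, against 67, 51.7 and 51.4 with ethanol (0.57, adjusted p = 0.49 by limma). ASNS, asparagine synthetase, had 73.4, 53.2 and 54.3 with A98, against 40.3, 43.4 and 39.8 with ethanol (0.53, adjusted p = 0.66 by limma). The list mean was 0.43, 0.18 and 0.14 in A98 libraries 1 to 3 and 0.05, -0.02 and -0.04 in ethanol libraries 1 to 3.

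Inflammatory targets of NF-kB, the factor of cytokine signalling, had 16 of 17 above 0, a median of 0.32 and 0 called. An unadjusted p under 0.05 was reached by 2, both upward, against 3.22% of all genes in that direction. IL1B, the cytokine interleukin 1 beta, had 672, 348 and 376 with A98, against 281, 273 and 284 with ethanol (0.67, SE 0.36, adjusted p = 0.78 by limma). ICAM1, an adhesion molecule, had 17.1, 16.7 and 12.4 with A98, against 8.12, 9.57 and 7.57 with ethanol (0.80, adjusted p = 0.75 by limma). The list mean was 0.54, 0.22 and 0.23 in A98 libraries 1 to 3 and 0.07, -0.06 and -0.01 in ethanol libraries 1 to 3. A98 library 1 was again the highest of the 6.

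**Figure D3:**
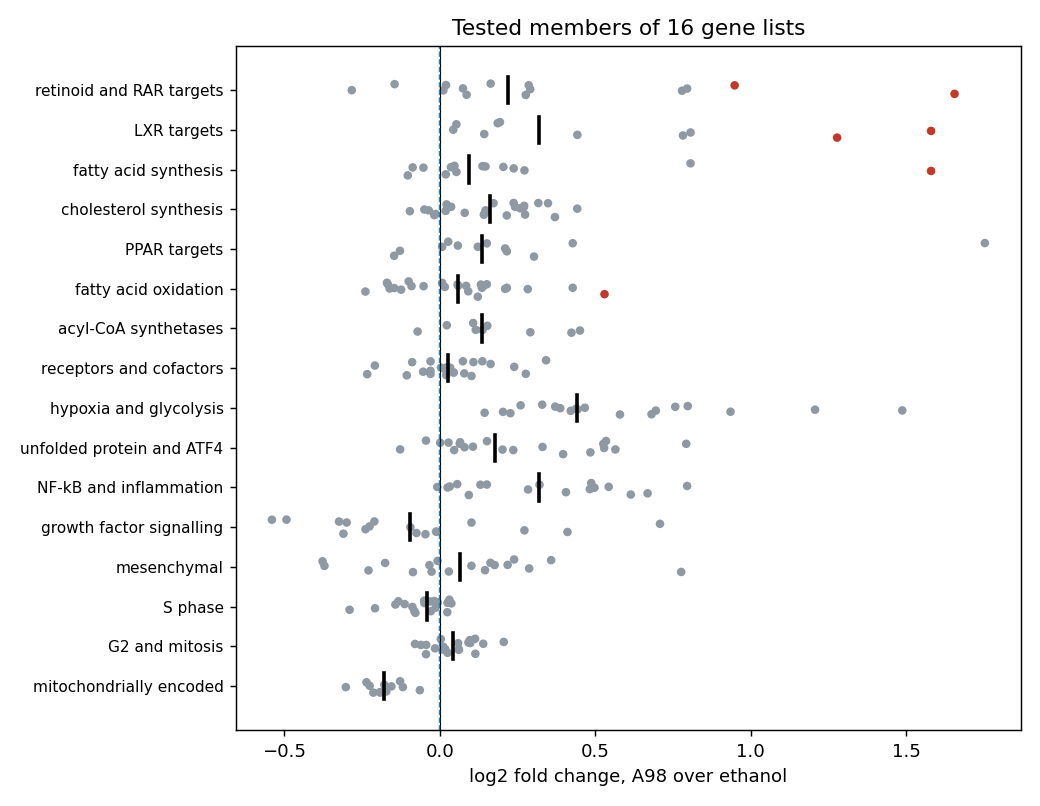
Log2 fold change of A98 over ethanol (horizontal axis) for the tested members of 16 gene lists (rows). Points are genes, red where the adjusted p was under 0.05, black bars are list medians, and the dashed line is the median of all genes tested. The LXR and hypoxia lists lie wholly above 0, and the mitochondrially encoded list lies wholly below it, although its median was 0.14 under quantile normalization.

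**Figure D4:**
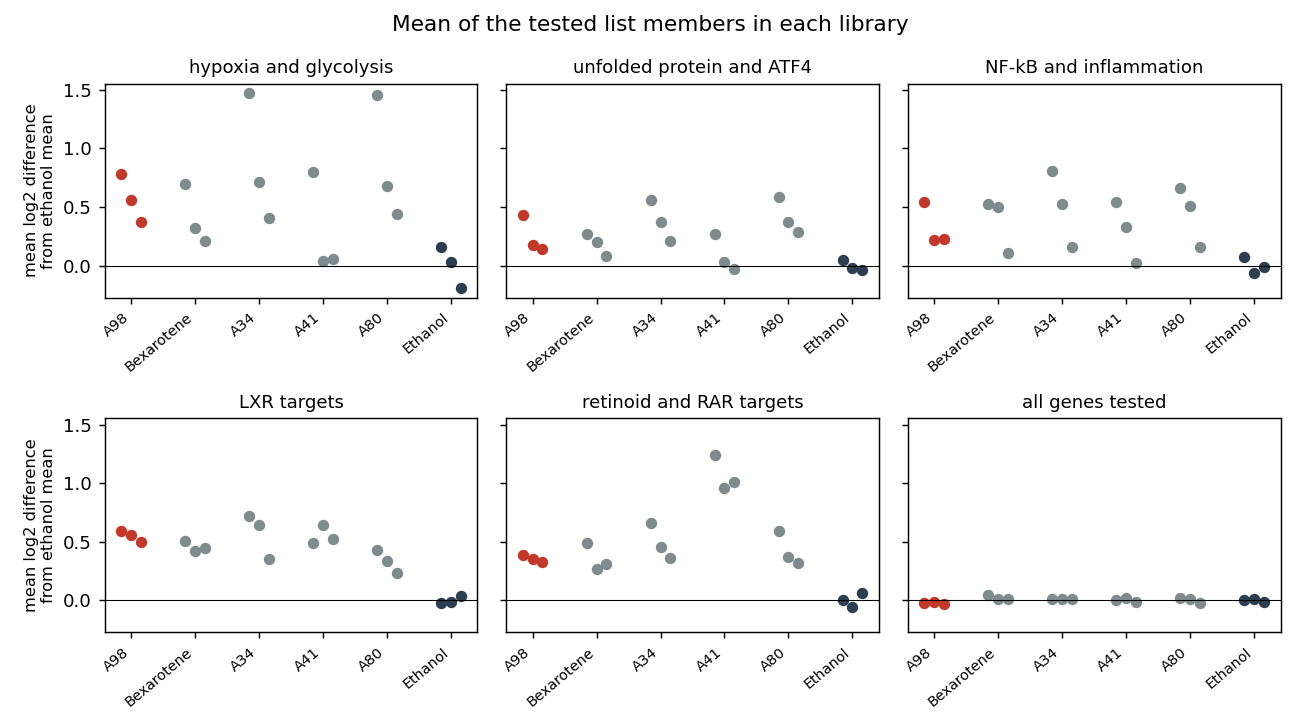
Mean log2 difference from the ethanol mean (vertical axes) over the tested members of 5 lists and over all genes, for each library, with libraries 1 to 3 of a group from left to right and ethanol at the far right. The hypoxia panel shows 0.78 in A98 library 1 and 0.37 in A98 library 3, and the LXR panel shows 0.59 and 0.50 in these libraries. With A34 and A80 the LXR panel also falls from library 1 to 3.

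A98 was then set against each other rexinoid at the same dose and time in the same limma model. For the 6 called genes this gave 24 pairs of gene and rexinoid, and 3 passed, all of them lower with A98 than with A41. Against bexarotene, A34 and A80 a single gene passed each time, 0.00547% of those tested, and it was the same one. That gene, SNORA70G, is a small nucleolar RNA gene of 142 bases that lies inside RAP1B on the opposite strand. It had 1.36, 1.89 and 1.36 scaled TPM with A98 and 0.66, 0.565 and 0.742 with ethanol, and was listed at 0 in all 9 libraries of bexarotene, A34 and A80. How strand was counted is not stated, so reads of RAP1B cannot be told apart from it. SNORA70G did not pass with a pseudocount of 0.5 in any of the 3 comparisons, where 0 genes were called.

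Against bexarotene the intervals bound how far the 6 genes could differ. The log2 difference for CYP26B1 was 0.04 (-0.38 to 0.46), for DHRS3 0.03 (-0.16 to 0.21) and for ECH1 0.10 (-0.07 to 0.27). ABCA1 had 58.9, 57.8 and 53.8 scaled TPM with A98, against 44.9, 51.9 and 52.9 with bexarotene, a difference of 0.19 (-0.07 to 0.44, adjusted p = 0.81 by limma). SCD differed by 0.19 (-0.14 to 0.53) and FAM20C by 0.16 (-0.12 to 0.44). No difference was called, and a difference as large as the upper bounds remains possible.

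Against A80 no lipid gene passed, though the intervals of ABCA1, SCD and ACSL3 lay above 0. ABCA1 had 47.5, 41.1 and 36.6 scaled TPM with A80, all below the A98 libraries, and the log2 difference of A98 minus A80 was 0.44 (0.19 to 0.70, adjusted p = 1 by limma over all genes). SCD differed by 0.37 (0.04 to 0.71) and ACSL3 by 0.21 (0.06 to 0.36), both with an adjusted p of 1 by limma. The retinoid genes lay closer, at 0.13 (-0.29 to 0.55) for CYP26B1 and -0.03 (-0.21 to 0.16) for DHRS3. Against A34 the point estimates went the other way, with SCD at -0.33 (-0.67 to 0.00), ABCA1 at -0.21 (-0.46 to 0.05) and DHRS3 at -0.19 (-0.37 to -0.01), and none passed (adjusted p = 0.98 by limma for all 3).

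Against A41, 24 genes passed (0.131%), 5 higher and 19 lower with A98, which are 0.0274% and 0.104% of genes. In all 24 the groups did not overlap, as for 6.13% of all genes higher and 6.11% lower with A98. The count was 15, 9 and 7 without A98 library 1, 2 and 3, and 13, 11 and 14 without A41 library 1, 2 and 3. It was 6 without the libraries rich in ribosomal RNA, which took 56.1% of TPM in A41 library 2. CYP26B1 had 67.5, 54.5 and 52 scaled TPM with A41, far above the A98 values of 15.6, 13 and 14.8, a difference of -1.93 (-2.35 to -1.51, adjusted p = 0.00033 by limma). DHRS3 differed by -1.18 (-1.36 to -1.0, adjusted p = 8.9e-06 by limma) and FAM20C by -0.72 (-1.0 to -0.45, adjusted p = 0.042 by limma). The other genes of the retinoid list that were lower with A98 were STRA6 (-1.68, adjusted p = 0.0025 by limma), TGM2 (-0.77, adjusted p = 0.00048) and NRIP1, a nuclear receptor corepressor (-0.58, adjusted p = 0.011). So 5 of the 14 tested passed, with a list median of -0.66, while over all genes the median was 0.00.

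PTGES, the terminal prostaglandin E synthase, had 38.3, 36 and 39.6 with A98, against 127, 153 and 105 with A41 (-1.71, adjusted p = 0.00012 by limma). Its ethanol values were 33.9, 25.8 and 26.4. ID1 had 427, 374 and 423 with A41, above 285, 287 and 270 with A98 (-0.54, adjusted p = 0.0015 by limma), and GALNT12 differed by -0.92 (adjusted p = 0.0092 by limma). Of the TGF-beta list SMAD3, a signal transducer, differed by -0.65 (adjusted p = 0.014 by limma) and LTBP3, which binds the latent ligand, by -0.79 (adjusted p = 0.031 by limma). HMGA2 had 107, 108 and 100 with A98, against 77.5, 68.2 and 77.9 with A41 (0.49, adjusted p = 0.016 by limma), and SPRY2, a receptor kinase antagonist, was higher with A98 by 0.58 (adjusted p = 0.04 by limma). ANKRD28, a regulatory subunit of a protein phosphatase, was higher with A98 by 0.43 (adjusted p = 0.042 by limma) and EVI2A by 0.71 (adjusted p = 0.049 by limma). On the opposite strand EVI2A shares 5340 bases with NF1, and HMGA2 shares 30828 with HMGA2-AS1 and 2538 with RPSAP52. ANKRD28 shares 295 there with RN7SL4P, which had a mean of 9581 scaled TPM over A98 and ethanol. Since strand handling is not stated, reads of these neighbours cannot be told apart. AC254633.1, on chromosome 1 near DHRS3, differed by -1.71 (adjusted p = 0.031 by limma). The STX16-NPEPL1 readthrough gene was also lower with A98, but it shares 28093 bases with STX16 and 26280 with NPEPL1 on the same strand, so its value is uncertain.

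For the lipid genes the A98 and A41 libraries lay closer. ABCA1 had 64.1, 55 and 59 scaled TPM with A41, overlapping the A98 values of 58.9, 57.8 and 53.8, a difference of -0.06 (-0.32 to 0.20, adjusted p = 0.94 by limma). SCD differed by -0.30 (-0.63 to 0.04, adjusted p = 0.71 by limma), ECH1 by -0.08 (-0.25 to 0.09, adjusted p = 0.84 by limma) and SREBF1 by -0.25 (-0.69 to 0.19, adjusted p = 0.81 by limma). The interval of ABCA1 lay wholly above that of CYP26B1 in the same comparison. Whether the difference between A98 and A41 was itself unequal between the 2 genes was not tested. The LXR list had 0 of 10 called and a median of -0.06 between A98 and A41.

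**Figure D5:**
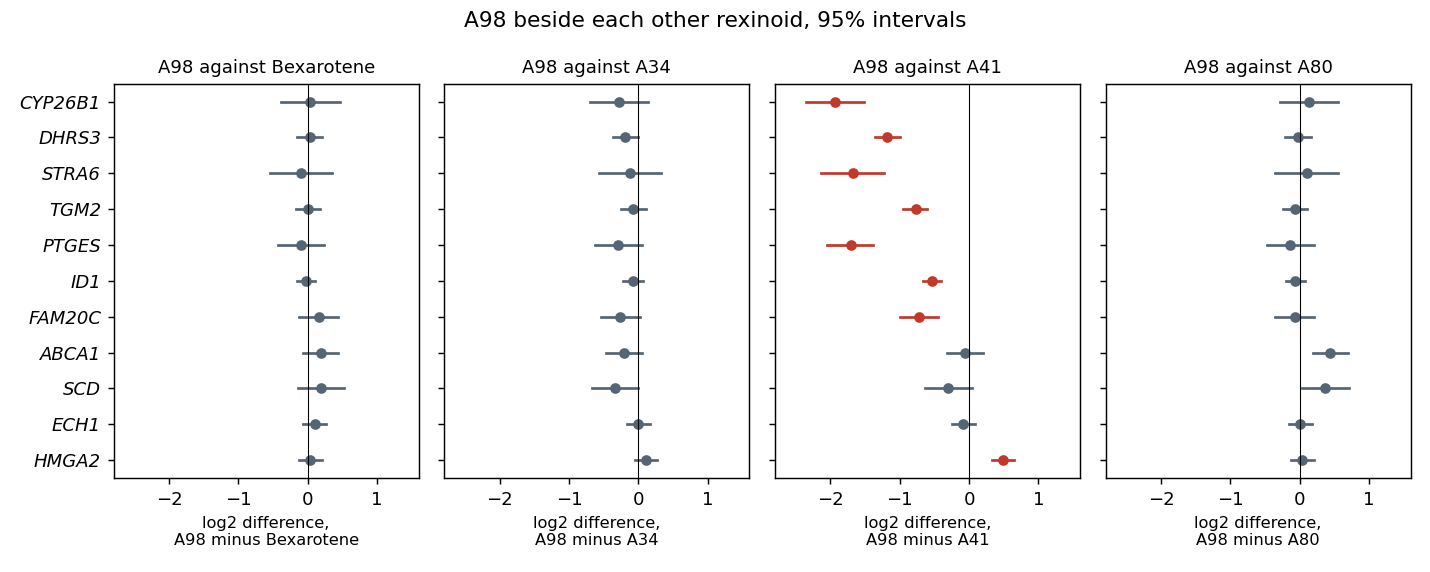
Log2 difference of A98 minus each other rexinoid (horizontal axes) for 11 genes (rows), with 95% intervals from limma and red where the adjusted p was under 0.05. Red points appear only in the A41 panel, where CYP26B1 stands at -1.93 and ABCA1 at -0.06.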

How the data were processed

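RNA was measured in 18 libraries, each with 1 deposited table of StringTie gene abundances. The submitters' processing notes name the tools STAR, StringTie and MultiQC and the build GRCh38. Their versions, the annotation release and strand handling are not stated there. The authors computed TPM, per the file headers. FPKM was a further deposited column, used here for depth alone. Depth came from the ratio of the deposited coverage signal (reads over each base) to FPKM, since no read counts were given. Groups and library numbers follow the titles. The deposited A98 tables carry the code A90 and the numbers 2, 3 and 4, and the ethanol tables the numbers 1, 3 and 4.

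Rows of the same gene ID were summed. TPM was divided by median-of-ratios factors from 16349 genes above 0 in every library. A gene was tested where 3 or more of the 18 libraries reached 1 TPM, which left 18269. The limma package (3.58.1, R 4.3.3) was fitted to log2(scaled TPM + 1) over all 18 libraries and 6 groups (12 residual degrees of freedom, prior 3.39, trend on level). The adjusted p is two-sided, by Benjamini-Hochberg over all genes tested, and intervals are 95%. The log scale understates changes of low genes. On simulated data for A98 against ethanol over 18269 genes, of 200 changed genes 49% were recovered at a log2 change of 0.5, 88% at 1.0 and 99% at 2.0. False calls were 3, 8 and 13. The changed genes were drawn from those with a mean log2 level above 3, and noise was normal and independent between genes. These shares therefore do not cover lower genes or variation that the genes of a library share. With 200 genes changed, the Benjamini-Hochberg adjustment is also easier to pass than in the data, where 6 were called. The shares may thus be too high for a comparison with few changes. Libraries of a group were compared first: r across genes was 0.976 to 0.978 within A98 and 0.966 to 0.976 within ethanol, and 0 pairs were identical. The comparison, its gene lists and tests were chosen with earlier results of these data known.

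Named genes were all those called against ethanol, the 10 of smallest p in each direction among uncalled genes with non-overlapping groups, a mean of at least 2 scaled TPM and a span of at least 300 bases, a fixed set of 35 genes and 31 gene lists, the genes called against another rexinoid where there were 10 or fewer, and otherwise, for A41, the 5 of largest difference in each direction under the same limits. The fixed set and the lists were not all named. Of each list, the 2 tested members of smallest p against ethanol were chosen, so they are not typical members. Further list members and genes called against A41 were named after their values were seen. Alternatives changed the pseudocount, the filter, the scaling, the moderation, a block on the library number and the libraries included. The values of 1 gene are not reported here.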

Additional observations from a re-analysis of the deposited data

How the results depend on the processing

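In A98 against ethanol, where 6 genes were called, the count was 11 with a filter of above 0 TPM, 15 with a replicate block from the file numbers, 24 with array weights and 2 with TPM as deposited. The 2 included 0 of the 6, and the median of all genes then shifted by 0.15 on the log2 scale. Leaving out 1 library gave 5 to 8 genes. CYP26B1, DHRS3, ABCA1, SCD and FAM20C passed under 20 of 21 alternatives and missed only with TPM as deposited (log2 fold changes 1.82, 1.12, 1.46, 1.76 and 1.28, adjusted p = 0.17, 1, 0.92, 0.34 and 1 by limma). ECH1 passed under 10 of 21. With the title number as a replicate block 8 genes passed, and over all genes the deviations of same-numbered A98 and ethanol libraries had r = -0.0913, -0.00236 and 0.0158, although the hypoxia list was highest in library 1 of every group. No called gene changed direction. With TPM as deposited, list medians of S phase (0.14), G1 (0.12), NRF2 (0.12), growth factor (0.07) and mitochondrially encoded genes turned positive, below or near that shift.

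Against bexarotene, A34 and A80, where 1 gene was called each, the counts were 0, 0 and 0 with pseudocounts of 0.1 and 0.5, a filter of 5 TPM, no libraries rich in ribosomal RNA, or either block. They were 6, 4 and 2 with the filter of above 0. TPM as deposited gave 0 for A34 and A80, and fitting only the 6 libraries compared gave 2 for bexarotene and 3 for A34. Against A41, where 24 were called, the count was 1 with TPM as deposited, 7 without ribosomal RNA genes, 15 with quantile normalization, 6 when libraries rich in ribosomal RNA were left out, 147 with array weights and 13 with only the 6 libraries. Leaving out 1 library gave 0 to 3 genes against bexarotene, 0 to 1 against A34, 7 to 22 against A41 and 0 to 1 against A80. The cause was not tested. Depth was 1.67 to 3.33 gigabases in the 6 libraries. Only 49% of changes of 0.5 on the log2 scale were recovered in simulation, where lower genes were not among those changed. That share may be too high for the data, since 200 genes were changed there and 6 were called here.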

Other observations

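Cell cycle genes gave small values in both directions. Of 20 S phase genes 4 had a log2 fold change above 0, the median was -0.04 (0.14 with TPM as deposited) and 0 were called. CDC6, which loads the replicative helicase, had 21, 25.2 and 25.3 scaled TPM with A98, against 28.6, 31.1 and 28.3 with ethanol (-0.29, adjusted p = 0.68 by limma). Of 20 G2 and mitosis genes 15 were above 0 with a median of 0.04, and 0 were called. CCND1, the cyclin of G1, had 310, 294 and 305 with A98, against 316, 315 and 337 with ethanol (-0.09, adjusted p = 0.91 by limma), and CDKN1A, an inhibitor of cyclin-dependent kinases, overlapped (0.03).

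Mitochondrially encoded genes were below 0 in all 13 tested, with a median of -0.18 that turned to 0.14 under quantile normalization, and 0 were called. In 12 the groups did not overlap, lower with A98 (8.18% of all genes in that direction). MT-ND1, a subunit of complex I, had 2844, 2896 and 3040 with A98, against 3673, 3228 and 3448 with ethanol (-0.24, SE 0.25, adjusted p = 0.91 by limma). SEs here draw on all 18 libraries, and the list mean was -1.37 in A80 library 3, outside this comparison. Of 18 mesenchymal genes 10 were above 0, with a median of 0.07, and 0 were called. LOX, which crosslinks collagen, had 80.2, 64.2 and 51.6 with A98, against 41.5, 38.3 and 32 with ethanol (0.78, adjusted p = 0.85 by limma). CD44, the hyaluronan receptor, had 1012, 1007 and 919 with A98, against 1216, 1074 and 1156 with ethanol (-0.23, adjusted p = 0.68 by limma), and TNC, a matrix glycoprotein, had 157, 141 and 143 with A98, against 194, 191 and 185 with ethanol (-0.37, adjusted p = 0.76 by limma).

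Some genes with very large fold changes were present in some libraries of a group and listed at 0 in others. DQX1, chosen after its values were seen, had 852, 1114 and 1082 with A98 and was listed at 0 in ethanol libraries 1 and 2, with 1248 in ethanol library 3.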
